A study of Arabidopsis thaliana with 6 samples.

Results

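Cytochrome P450 monooxygenases of Arabidopsis thaliana were followed in cells sorted from the root. The genes were those whose symbol in the probe annotation or the gene table reads CYP, a number, 1 or 2 letters and a number, which leaves out the cyclophilins. The gene table holds 225 such genes in 40 families. Of these, 22 genes in 5 families had a probe set that names a single gene, out of 13356 genes measured in this way over the series. A further 3 genes, CYP79C2, CYP71B19 and CYP71B20, were named only on 2 probe sets shared with another gene and were left out. The other 200 had no named probe set and were not analysed here. Each measured gene had 1 probe set, so no choice between probe sets was needed.

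The samples were 3 arrays from plants with a WOX5::GFP reporter and 3 from plants with a pTMO5::GFP reporter. All plants were Col-0 seedlings aged 5 days on standard medium, and fluorescent cells were collected by sorting. Each group is therefore defined by where 1 promoter drives GFP, WOX5 being known from the quiescent centre and TMO5 from young vascular cells. The sample descriptions name the quiescent centre for WOX5 and xylem for TMO5, while the cell type field swaps the words, so groups are called WOX5 and TMO5 here. Nothing in the labels says that the replicates were separate cultures, so the p-values cover only array-to-array spread, part or all of which may be technical.

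P450 enzymes carry a heme group and insert oxygen into small molecules, drawing electrons from NADPH through a partner reductase in the endoplasmic reticulum. Plants use them to make and break down hormones, sterols, lignin precursors and defence compounds. The number in a name marks the family and the letter the subfamily. The CYP71B genes, which made up 18 of the 22 measured genes, form a large Arabidopsis subfamily in which many members sit side by side on the chromosome. Few of them have a known substrate. CYP71B15, the best known, catalyses the last step in the synthesis of the defence compound camalexin and was not among the measured genes.

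Values are intensities on a linear scale, and differences are log2 intensity in WOX5 minus TMO5. Each array's own background was taken from 27 probe sets for unspiked bacterial transcripts, as their 95th percentile. It lay between 25.2 and 40.0 on the WOX5 arrays and between 24.8 and 28.7 on the TMO5 arrays. WOX5 replicate 2 stood apart from its group, with a log2 correlation of 0.943 with replicate 1 over the brighter probe sets, against 0.982 between replicates 1 and 3. The bioB control spike averaged 32.5 to 35.2 on the WOX5 arrays, inside their range of backgrounds, and 375.9 to 397 on the TMO5 arrays. The cre control spike averaged 10077 to 11300 on the WOX5 arrays and 14747 to 15903 on the TMO5 arrays. The ratio of 3′ to 5′ GAPDH signal was 1.92 to 2.0 in WOX5 and 3.58 to 3.79 in TMO5. The same ratio for actin was 18.2 to 30.3 in WOX5 and 16.6 to 19.3 in TMO5, and overlapped. The bioB, cre and GAPDH controls thus separated the groups, and their part in the results below was not tested. Of 9 markers of the quiescent centre and its niche 6 were measured, and all 6 were higher in WOX5 by limma. Their summed intensity was 2584 to 4455 in WOX5 against 1113 to 1235 in TMO5. BBM and SPT, the brightest of the 6, passed only narrowly (limma adjusted p = 0.048 and 0.047). Of 10 xylem and vascular markers 2 were measured, PHV being lower in WOX5 and LHW not passing. Neither WOX5 nor TMO5 itself had a named probe set.

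The comparison asked which P450 transcripts distinguish cells marked by WOX5 from those marked by TMO5. CYP71B6, CYP51G2 and CYP78A9 were higher in WOX5, by 8.11-fold, 4.69-fold and 4.17-fold as measured. Some TMO5 values of CYP51G2 and CYP78A9 lay within background, and raising them to it gave 4.48-fold and 2.46-fold. No P450 gene was lower at the threshold of 0.05 (limma with Benjamini-Hochberg adjustment over 22746 probe sets). At an unadjusted p below the same threshold, 5 genes were higher (22.7%) and 1 was lower (4.55%), beside 21.1% and 17.3% of all probe sets. The 3 rises are 13.6% of the 22 genes, close to the 14.3% of all probe sets that were higher in WOX5, while 9.49% of all probe sets were lower. That balance over all probe sets depends on the scaling, with 3252 higher and 2159 lower as deposited, 2569 and 2864 with quantile normalization, and 2241 and 5297 after each array was centred on its median. The same scalings gave 2 P450 genes higher and 1 lower, and 2 higher and 2 lower. The median log2 difference of the P450 genes was 0.04, beside 0.03 over all probe sets, but 11 of the 22 values come from genes within background on all arrays and carry no direction.

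**Figure D1:**
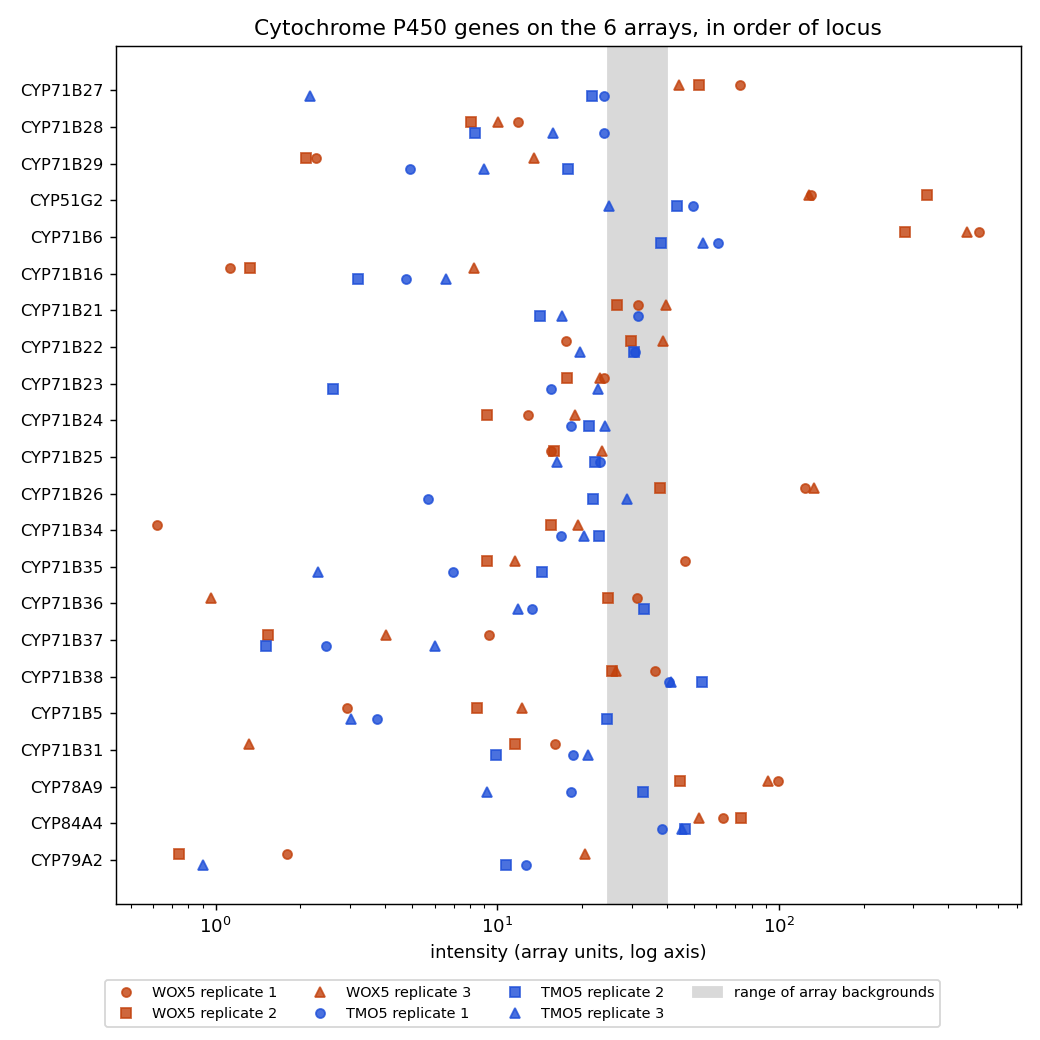
Intensity of the 22 P450 genes (log axis) on each WOX5 array (orange) and TMO5 array (blue), with the range of array backgrounds in grey. Most points lie in or left of the grey band, and the WOX5 points of CYP71B6 and CYP51G2 lie clear of it.

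Most of the 22 measured genes gave little signal in either cell population. On single WOX5 arrays 5 to 9 of the 22 genes exceeded background, and on single TMO5 arrays 4 to 7. Over all probe sets the share above background was 62.6% to 72.9% on the WOX5 arrays and 67.8% to 73% on the TMO5 arrays. Altogether 11 genes stayed within background on all 6 arrays, with no value above 24.5. Only CYP71B6 and CYP84A4 exceeded background on every array. A value within background sets a ceiling on the transcript's signal and gives no usable ratio between groups.

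CYP71B6, an enzyme that oxidises indole-3-acetonitrile towards indole-3-carboxylic acid, showed the largest difference of the measured P450 genes. Its intensities were 516, 279.6 and 464 in WOX5 cells, against 60.9, 38.3 and 53.8 in TMO5 cells. All WOX5 arrays lay far above all TMO5 arrays, and replicate 2 was the lowest of the WOX5 group. The means were 420 ± 124 in WOX5 and 51.0 ± 11.6 in TMO5 (SD, n = 3), a log2 difference of 3.02 ± 0.31 (SE; limma adjusted p = 0.0031). The 95% interval ran from 2.25 to 3.79. It was the P450 gene that passed under each of the 15 alternatives run, of which those on probe set and symbol choice changed no value, with adjusted p between 1.978e-05 and 0.021, and without WOX5 replicate 2 the difference was 9.78-fold.

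CYP51G2 belongs to the family of sterol 14-demethylases, whose active Arabidopsis enzyme is its paralog CYP51G1. The gene table lists CYP51G2 (AT2G17330) as a transcribed pseudogene. Its intensities were 130, 335 and 127 in WOX5, against 49.6, 43.6 and 25.0 in TMO5. The groups did not overlap, and WOX5 replicate 2 stood far above the other WOX5 arrays. The means were 198 ± 119 in WOX5 and 39.4 ± 12.8 in TMO5 (SD, n = 3), a log2 difference of 2.23 ± 0.48 (SE; limma adjusted p = 0.026). TMO5 replicate 3 was within background. Without WOX5 replicate 2 the difference was 3.41-fold (adjusted p = 0.033). The call was lost without WOX5 replicate 1 or any 1 TMO5 array, with adjusted p up to 0.074, and over all alternatives adjusted p ran from 0.0019 to 0.074. CYP51G1 was not measured under a name of its own, and whether its transcript adds to this probe set was not tested.

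CYP78A9 belongs to the CYP78A subfamily of growth regulators, and its overexpression in Arabidopsis is known to enlarge fruits and seeds. Its intensities were 99.5, 44.5 and 91.4 in WOX5, against 18.4, 32.9 and 9.23 in TMO5. The groups were separate, but TMO5 replicate 2 approached WOX5 replicate 2, and only that TMO5 array exceeded background. The means were 78.5 ± 29.7 in WOX5 and 20.2 ± 11.9 in TMO5 (SD, n = 3), a log2 difference of 2.06 ± 0.56 (SE; limma adjusted p = 0.048). The call lay at the edge of the threshold. Among the scalings and left-out arrays, it was lost with quantile normalization (adjusted p = 0.0502), with arrays centred on their medians (0.063) and without any 1 array other than TMO5 replicate 2 (0.052 to 0.126), and adjusted p over all alternatives ran from 0.0098 to 0.126.

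**Figure D2:**
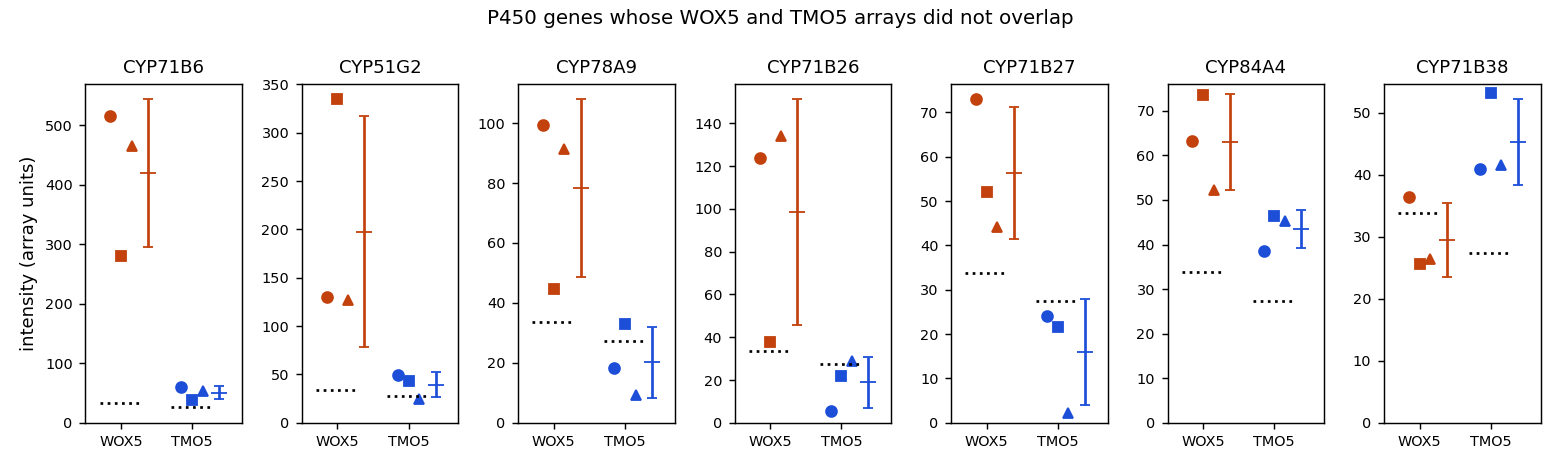
Intensity on each array, with means and SD bars, for the 7 P450 genes whose groups did not overlap, WOX5 left and TMO5 right in each panel, circles, squares and triangles marking replicates 1, 2 and 3 and dotted lines the mean background of the group. CYP71B38 is the panel with WOX5 below TMO5, and WOX5 replicate 2 lies apart from replicates 1 and 3 for CYP71B6, CYP51G2, CYP78A9 and CYP71B26.

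The groups did not overlap for 7 P450 genes, 6 with WOX5 above TMO5 (27.3% of the 22) and 1 with WOX5 below (4.55%). Over all probe sets these shares were 24.4% and 22.4%. Besides the 3 called genes they were CYP71B26, CYP71B27, CYP84A4 and CYP71B38, none of which passed.

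CYP71B26 had intensities of 124, 37.8 and 134 in WOX5, against 5.66, 21.9 and 29.0 in TMO5. WOX5 replicate 2 was within background, as were TMO5 replicates 1 and 2. The log2 difference was 2.48 ± 0.80 (SE; limma adjusted p = 0.076), and the 95% interval ran from 0.50 to 4.46. With the TMO5 values raised to background the fold was 3.12, and with single arrays left out the fold ran from 3.39 to 8.40. It passed as higher under 4 of 15 alternatives, including the filter on dim probe sets (adjusted p = 0.033) and array weights (0.034), within a range of 0.016 to 0.18 over all of them.

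CYP71B27, also listed as a transcribed pseudogene, had intensities of 72.9, 52.0 and 44.1 in WOX5, against 24.0, 21.6 and 2.17 in TMO5. Every WOX5 array exceeded background and no TMO5 array did. With the TMO5 values raised to background the fold was 2.02, a point estimate that sets no lower bound. The 95% interval of the log2 difference as measured ran from -0.02 to 4.83 and so included no difference. The log2 difference of 2.40 ± 0.98 (SE; limma adjusted p = 0.13) rested in part on the very low value of TMO5 replicate 3. It passed under 2 of 15 alternatives, a floor at the 20th percentile of each array (adjusted p = 0.0046) and an intensity trend with robust variances (0.047), in a range up to 0.26. Both pseudogenes among the measured genes, CYP51G2 and CYP71B27, were thus among the 5 P450 genes above background on all WOX5 arrays. The others were CYP71B6, CYP78A9 and CYP84A4.

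CYP84A4 acts on a phenylpropanoid aldehyde in the synthesis of arabidopyrones and is a relative of the lignin enzyme ferulate 5-hydroxylase. Its intensities were 63.3, 73.6 and 52.1 in WOX5, against 38.5, 46.5 and 45.3 in TMO5. The WOX5 arrays were slightly brighter throughout, with a log2 difference of 0.53 ± 0.19 (SE; limma adjusted p = 0.101). The 95% interval was 0.05 to 1.0, and no alternative brought the gene past the threshold (adjusted p from 0.051 to 0.61). The log2 difference shrank to 0.25 with quantile normalization and to 0.15 with arrays centred on their medians.

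CYP71B38 was the single P450 gene dimmer on all WOX5 arrays, at 36.3, 25.6 and 26.5 in WOX5 against 40.9, 53.2 and 41.6 in TMO5. All TMO5 arrays and WOX5 replicates 1 and 3 exceeded background, by little in WOX5. The log2 difference was -0.62 ± 0.21 (SE; limma adjusted p = 0.088). It passed as lower under 4 alternatives, among them quantile normalization (adjusted p = 0.036) and arrays centred on their medians (0.021), within a range of 0.021 to 0.22.

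**Figure D3:**
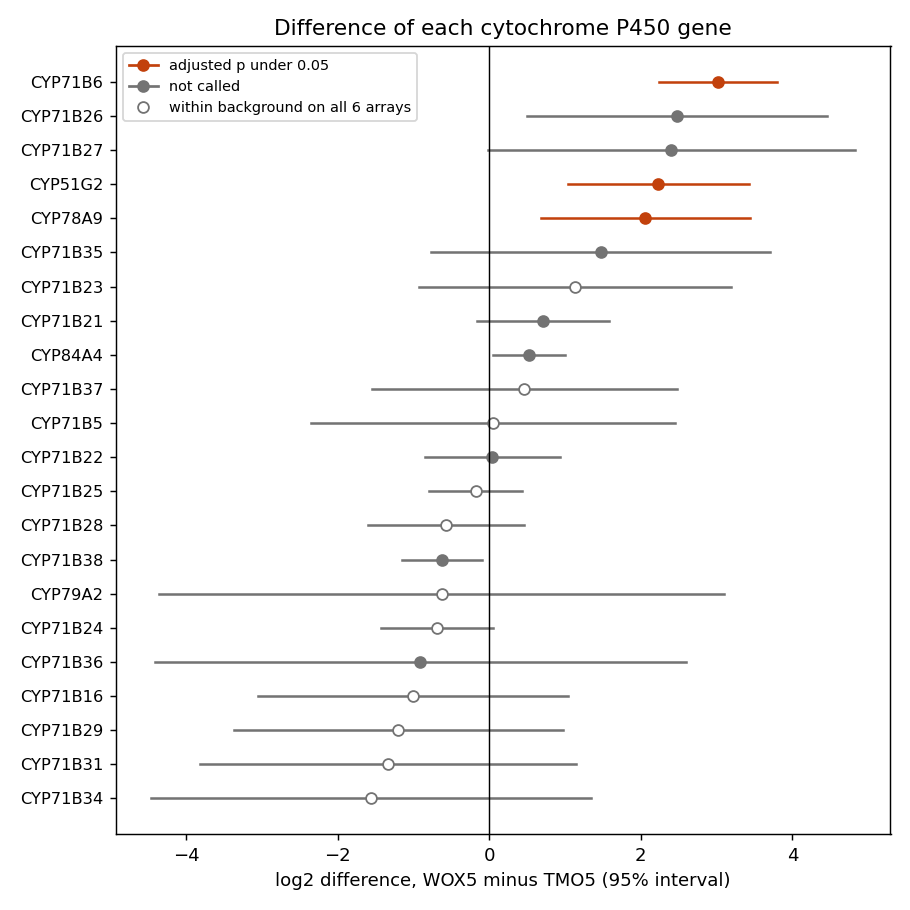
Log2 difference, WOX5 minus TMO5, with its 95% interval for each P450 gene, orange where the adjusted p passed and open circles for genes within background on all 6 arrays. The 3 orange intervals lie right of zero, and the intervals of dim genes such as CYP79A2 span zero widely.

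By family number the measured genes were uneven. CYP71, represented by subfamily B alone, held 18 genes, of which 1 rose and 0 fell. Of the CYP71 genes 10 were within background on all 6 arrays, so the family's median log2 difference of -0.07 has no settled direction. The CYP51, CYP78, CYP79 and CYP84 families held 1 gene each, and of these CYP51G2 and CYP78A9 rose. CYP79A2, which turns phenylalanine into its oxime at the start of benzylglucosinolate synthesis, stayed within background on every array. Its values were 1.79, 0.744 and 20.4 in WOX5, against 12.6, 10.8 and 0.901 in TMO5. Such scatter within each group gave a log2 difference of -0.63 ± 1.5 (SE), which says nothing about direction. All families but CYP51 belong to the A-type P450s of the CYP71 clan, where 2 of 21 genes rose and 0 fell.

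The CYP71B genes fell mostly into rows of neighbours. In gene order, with at most 10 other genes between neighbours, a row on chromosome 3 from CYP86C2 to CYP71B37 holds 19 P450 genes, of which 11 were measured. By limma none of the 11 passed in either direction, and CYP71B26 alone was below the threshold before adjustment. CYP71B26 was the gene of this row with WOX5 replicates 1 and 3 well above background, at 124 and 134, while its measured neighbours CYP71B25 and CYP71B34 stayed within background on all arrays. CYP71B25 had 15.5, 15.9 and 23.5 in WOX5 against 23.2, 22.2 and 16.4 in TMO5. CYP71B34 had 0.618, 15.6 and 19.4 in WOX5 against 16.8, 22.9 and 20.3 in TMO5.

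**Figure D4:**
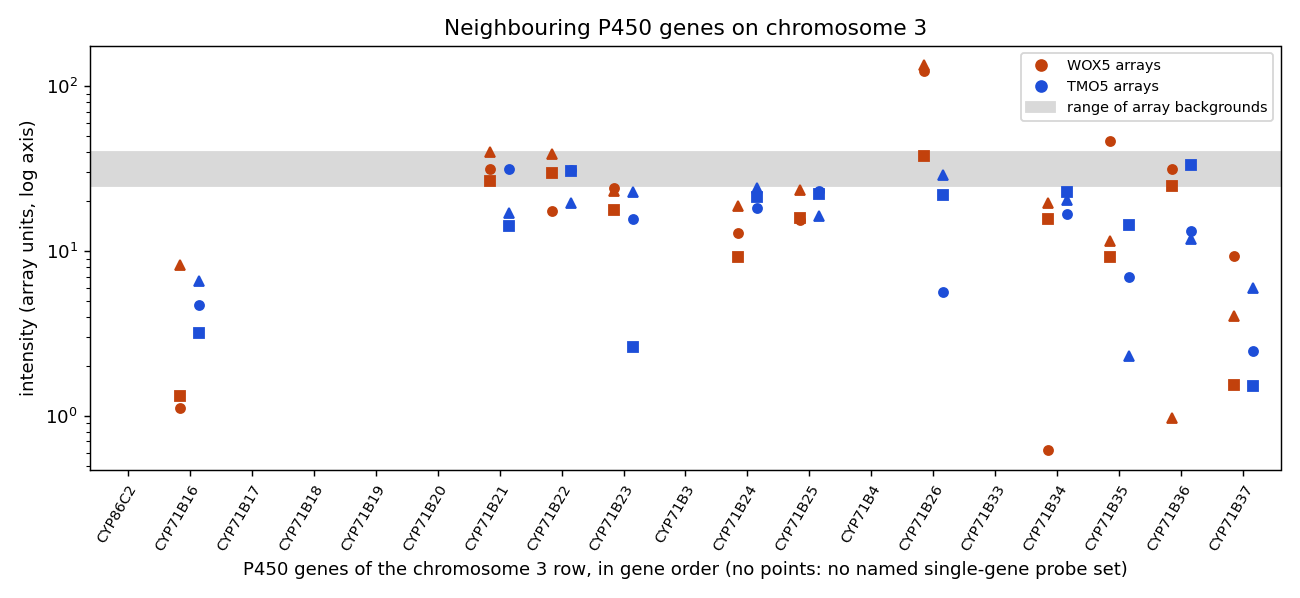
Intensity (log axis) of the neighbouring P450 genes on chromosome 3 in gene order, WOX5 arrays in orange left of TMO5 arrays in blue, with the range of array backgrounds in grey and replicates 1, 2 and 3 as circles, squares and triangles. CYP71B26 lies above the grey band on WOX5 replicates 1 and 3, while most other genes stay within or under it.

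Elsewhere in that row single arrays crossed background, but not all arrays of a group. CYP71B35 reached 46.6 on WOX5 replicate 1, but was at 9.17 and 11.6 on the other WOX5 arrays, against 6.98, 14.4 and 2.31 in TMO5. CYP71B21 had 31.6, 26.6 and 39.8 in WOX5 against 31.6, 14.2 and 17.0 in TMO5, and the groups overlap. CYP71B22 had 17.6, 29.8 and 38.7 in WOX5 against 30.9, 30.7 and 19.6 in TMO5, overlapping too. For CYP71B36 the array above background was TMO5 replicate 2, at 33.2. CYP71B16, CYP71B23, CYP71B24 and CYP71B37 were within background throughout. CYP71B24 passed as lower with arrays centred on their medians (limma adjusted p = 0.048) and CYP71B16 as lower without WOX5 replicate 3 (0.034), but both compare values within background, and their adjusted p reached 0.54 and 0.73 under other alternatives.

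A shorter row on chromosome 1, from CYP71B27 to CYP86C4, holds 7 P450 genes, of which 3 were measured. CYP71B27 is described above. CYP71B28 and CYP71B29 lay within background on all arrays, CYP71B28 at 8.09 to 11.9 in WOX5 and 8.37 to 23.9 in TMO5, and CYP71B29 at 2.09 to 13.5 in WOX5 and 4.89 to 17.8 in TMO5. On another part of chromosome 3, CYP71B5 and CYP71B31 are 2 of 3 neighbouring P450 genes and were also within background, with log2 differences of 0.04 ± 0.97 and -1.33 ± 1.0 (SE). Neighbours can share sequence, and cross-hybridisation between them was not tested.

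Of 83 P450 genes listed under 14 roles, from hormone and sterol metabolism to lignin, suberin and terpenoids, 3 were measured, namely CYP71B6, CYP84A4 and CYP78A9. None of the listed genes for brassinosteroid, gibberellin, abscisic acid, cytokinin or jasmonate metabolism was among them, so hormone P450s were not analysed here. CYP79A2 and CYP51G2, described above, were measured but stood on none of these lists. Of 11 electron donors and membrane partners, only AT3G02280 was measured. It is a diflavin reductase known as ATR3 or TAH18, resembling P450 reductase, whose yeast counterpart Tah18 works in iron-sulfur protein assembly. Its intensities were 204, 211 and 273 in WOX5, against 497, 486 and 400.2 in TMO5. It was 2.02-fold lower in WOX5, with a log2 difference of -1.01 ± 0.19 (SE; limma adjusted p = 0.017).

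Markers of neighbouring tissues moved as well. The cortex marker CO2 (AT1G62500), the 1 cortex gene listed, was higher in WOX5 (limma adjusted p = 0.0026), at 249 to 521 against 26.6 to 42.0 in TMO5. LBD16, 1 of 2 pericycle genes listed, was also higher (limma adjusted p = 0.0065), at 66.9 to 74.9 in WOX5 against 26.4 to 34.7 in TMO5. The 2 measured of 3 root hair genes and the 1 measured of 3 phloem genes did not pass, and no endodermis or root cap marker was measured. Their part in the rises of CYP71B6, CYP51G2 and CYP78A9 was not tested, and in sorted pools a change in the number of cells of a type and a change in RNA per cell cannot be told apart.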

How the data were processed

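Affymetrix arrays were hybridised with biotin-labelled RNA from sorted root cells. The authors deposited 1 table of linear intensity values for 22810 probe sets, with no detection calls, and every array had a mean of 250.0 after trimming 2% at each end. Which software summarised the probes is not stated in the labels or the file. Per the labels' protocols both 1-cycle and 2-cycle labelling were used, with no assignment for these arrays. Values under 1 were raised to 1 and converted to log2. After setting aside 64 control probe sets, 22746 were fitted by lmFit and eBayes (limma 3.58.1, R 4.3.3), and p-values were adjusted by Benjamini-Hochberg over all of them. Names came from the platform annotation, updated through the TAIR10.1 gene table by gene ID, and 13513 probe sets named 1 gene, 503 several and 8730 none. The gene table served only for names, gene types and gene order.

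The fit was tested on simulated data with 22746 probe sets for this comparison. It recovered 78 of 100 changes of 2 log2 units and 4 of 100 of 1 log2 unit. These changes were placed only in probe sets with a mean log2 intensity above that of 100. Far fewer probe sets were changed than were called in the data. By mean log2 intensity, 20 of the 22 P450 genes lay below the median of all tested probe sets. The median SE of the P450 genes was 0.80, against 0.26 over all tested probe sets. The recovery therefore does not carry over to the dim P450 genes. Named genes are the called members, the role list and partner genes measured, and members of gene rows; other members were chosen after their values were seen. Members, lists and tests were chosen with earlier results of these data known. Alternatives were quantile normalization, median centring, a filter on dim probe sets, a higher floor, an intensity trend, array weights, a replicate block and leaving out each array. The number of arrays limits the precision.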

Additional observations from a re-analysis of the deposited data

How the results depend on the processing

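CYP71B6 passed as higher in WOX5 under every alternative run. The count of P450 genes higher in WOX5, 3 as deposited, was 5 when the floor was each array's 20th percentile. It was also 5 when variances were robust and followed intensity. With the filter on dim probe sets it was 4, with array weights 4, with quantile normalization 2 and with centred arrays 2. When single arrays were left out it ranged from 1 to 2, being 1 without WOX5 replicate 1, TMO5 replicate 1 or TMO5 replicate 3. The count of lower genes, 0 as deposited, was 1 with quantile normalization, 2 with arrays centred on their medians, 1 with the filter on dim probe sets, 1 with the higher floor, and 0 to 1 when single arrays were left out. The median log2 difference, 0.04 as deposited, was -0.16 with quantile normalization and -0.34 with centred arrays, where the median of all probe sets moved to -0.14 and -0.35. It was 2.15 with the filter, which left the 8 P450 genes above background on at least 3 arrays. Of these, CYP71B27, CYP78A9, CYP51G2 and CYP71B26 had more WOX5 than TMO5 arrays above background, and CYP71B22 and CYP71B38 fewer. The filtered median thus partly reflects which genes were kept. Without single arrays the P450 median ran from -0.26 to 0.14. The cause of the other changes was not tested. Deviations of same-numbered arrays correlated at -0.05, 0.02 and 0.02, and WOX5 replicate 1 correlated best with TMO5 replicate 3, at only 0.03. The replicate numbers thus left no visible pairing in the values. Such small correlations cannot tell whether same-numbered arrays were handled together. With a replicate block 2 P450 genes were higher and 0 lower, CYP78A9 losing its call (adjusted p = 0.12), and 2270 of all probe sets passed, against 5411 without it. Choosing the dimmest probe set or adding genes by synonym changed nothing, as each gene had 1 probe set and 0 genes were added. Within background on all 6 arrays were 11 of the 22 genes, whose median SE was 0.83 on the log2 scale. Only CYP71B6 and CYP84A4 exceeded background on every array, so the other genes had at least 1 value within it.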

Other observations

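Among the 3 WOX5 arrays, replicate 2 gave the lowest value for 12 of the 22 P450 genes and the highest for 2, CYP51G2 and CYP84A4. CYP51G2 stood at 335 on that array, against 130 and 127 on the other WOX5 arrays. CYP71B26 went the other way, at 37.8 on replicate 2 against 124 and 134. CYP71B6 and CYP78A9 were also lowest on replicate 2. The cortex marker CO2 was likewise lowest there, at 249 against 521 and 488. Each measured marker of the quiescent centre and its niche was highest there, BBM for example at 2036 against 1055 and 1101. No reason for these differences of replicate 2 was tested.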
